A study of Canis lupus familiaris with 13 samples.

Results

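The chemokines CXCL12, CXCL14, CXCL10, CXCL8, CCL2, CCL5 and CCL19 were described in primary soft tissue sarcomas of dogs, malignant tumours of connective tissue. Their members on the Affymetrix canine array were the probe sets, groups of short probes that read 1 transcript, whose platform symbol was one of these names. This gave 13 probe sets of 7 genes, out of 42924 tested probe sets and 15115 named genes. The symbol IL8 is an older name of CXCL8, and the receptor CXCR4 was not analysed here. The metastatic group held 5 untreated primary tumours labelled metastatic. The non-metastatic group held 8 untreated primary tumours of dogs without metastasis for at least 1 year. The labels give no sarcoma subtype, breed, age or follow-up of the metastatic group. Whether each tumour is from its own dog is not given either, and every p-value rests on the spread among these 13 samples alone.

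Chemokines are small secreted proteins that direct the migration of cells through G protein-coupled receptors. CXCL12 is made by stromal cells, retains leukocytes and stem cells in their niches through CXCR4, and is scavenged by the atypical receptor ACKR3. CXCL14 and CCL19 are mostly homeostatic: CXCL14 is made by epithelia and fibroblasts, and CCL19 guides T cells and dendritic cells into lymphoid tissue through CCR7. CXCL10, CXCL8, CCL2 and CCL5 are inflammatory chemokines that attract T cells, neutrophils, monocytes and mixed leukocytes. In tumours they are made by cancer cells, fibroblasts, endothelium and leukocytes. In RNA of whole biopsies, fewer cells of a type and less RNA per cell cannot be told apart.

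All values are log2 intensities, so a difference of 1 is a doubling of signal, and differences are metastatic minus non-metastatic. The controls spiked into the RNA before labelling separated the samples into 3 classes. Their signal was even in the whole metastatic group and in non-metastatic replicates 5 to 8, absent in non-metastatic replicates 1, 3 and 4, and biased to the 3′ end in replicate 2. The 9 samples of even signal were the only class with both groups, so values within them stand beside the main ones. Between non-metastatic samples of even and of no spike-in signal, 21.7% of all probe sets differed (limma, adjusted p under 0.05), with 5.85% lower in those of even signal. Without their target, spike-in probe sets read between 2.63 and 7.16, and a value in that range is not told apart from it. The fibroblast markers fixed for these tumours were all measured, 12 of 12, and no value was 0.

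Of the 13 chemokine probe sets, 1 passed the test over all samples (limma, adjusted p under 0.05), 1 of the 2 of CCL19, which was lower in metastatic tumours. Of all probe sets 4.90% passed, 3.34% lower and 1.56% higher in metastatic tumours. At an unadjusted p under 0.05 there were 4, the pairs of CXCL12 and CCL19. The share of all probe sets or genes at an unadjusted p under 0.05 was not counted. Counts at that cutoff, here and below, therefore have no background beside them and do not show an excess. At the probe set of highest mean, 5 genes had negative and 2 positive differences. Their median was -0.90, against 0.05 over all genes. The ranges of both groups overlapped for all 13 probe sets, whereas 2.63% of all probe sets had ranges that did not overlap. Within the samples of even spike-in signal 0 of the 13 passed, 3 had an unadjusted p under 0.05, and 2.78% of all probe sets passed, 2.20% as lower in metastatic tumours. At 1 probe set a gene, 2.82% of genes passed there, 2.24% as lower.

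**Figure D1:**
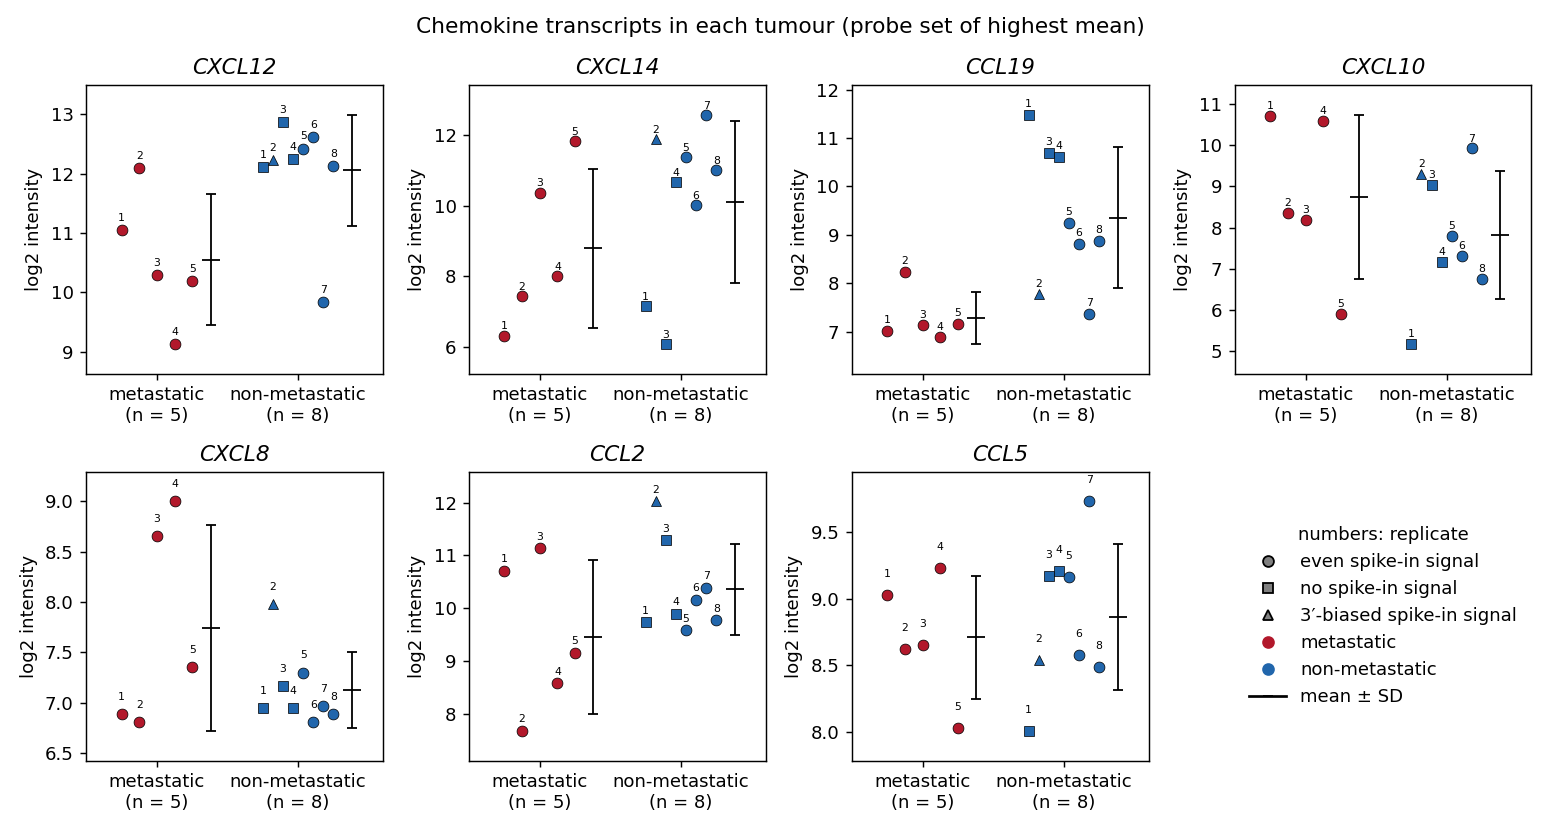
Log2 intensity of 7 chemokine genes in each tumour at the probe set of highest mean, with metastatic samples in red on the left and non-metastatic samples in blue on the right; numbers are replicates, symbols give the spike-in class, and bars are the mean ± SD. CXCL12 was above 12 in 7 of 8 non-metastatic tumours and in metastatic replicate 2. CCL19 was highest in the 3 samples without spike-in signal, and CXCL8 was high in metastatic replicates 3 and 4 and in non-metastatic replicate 2.

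CXCL12 was lower in most metastatic tumours than in most non-metastatic ones, but the difference did not pass the test. Its log2 intensity was 11.05, 12.09, 10.29, 9.13 and 10.19 in metastatic replicates 1 to 5. In the non-metastatic tumours the lowest value was 9.83, the median 12.24 and the highest 12.86. All 5 metastatic values lay below the non-metastatic median, and 7 of the 8 non-metastatic values lay above every metastatic one. The groups overlapped through a single tumour, non-metastatic replicate 7, at 9.83. Apart from this tumour the gap between the groups was narrow. Metastatic replicate 2 read 12.09, and non-metastatic replicates 1 and 8 read 12.11 and 12.13. CXCL12 averaged 10.55 ± 1.10 in the 5 metastatic and 12.06 ± 0.93 in the 8 non-metastatic tumours (SD). The difference was -1.50 ± 0.51 (SE, limma adjusted p = 0.100), 2.84-fold lower, with a 95% interval from -2.59 to -0.42.

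The second CXCL12 probe set gave -1.64 ± 0.54 (SE, limma adjusted p = 0.0951), and the 2 probe sets correlated across the 13 samples with a Pearson r of 0.96 and a Spearman rho of 0.95. With 1 sample left out, neither passed in 12 of the 13 fits, where the limma adjusted p reached 0.205 and 0.192. Both passed in the fit without non-metastatic replicate 7, at -1.82 and -1.98 (adjusted p = 0.0211 and 0.0195). The groups overlapped through this tumour alone at the first probe set. At the second, non-metastatic replicate 2 (10.09) also lay below metastatic replicate 2 (10.45). Within the samples of even spike-in signal the differences were -1.20 and -1.32 (limma adjusted p = 0.371 and 0.312). CXCL12 averaged 11.75 ± 1.29 (SD, n = 4) in non-metastatic tumours of even signal and 12.41 ± 0.40 (SD, n = 3) in those without spike-in signal. Fibroblasts are a known source of CXCL12, and 3 of the 12 fibroblast markers fell while 0 rose, where 3.70% and 1.65% of all genes fell and rose at their probe set of highest mean. Of the 12, 1 fell within the samples of even signal, where 2.24% of all genes did. The mean level of the 12 markers ran from 10.32 to 11.53 in metastatic and from 11.06 to 11.999 in non-metastatic tumours, and their part in the CXCL12 difference was not tested. In whole biopsies of connective tissue tumours, whether fibroblasts or tumour cells carried these markers cannot be told apart.

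ACKR3, which binds and clears CXCL12, read 8.60, 6.97, 10.64, 8.37 and 10.24 in metastatic replicates 1 to 5. The non-metastatic tumours ran from 9.76 to 11.94. Metastatic replicates 3 and 5 lay inside the non-metastatic range and the other 3 below it. The difference was -1.71 ± 0.54 (SE, limma adjusted p = 0.0805), and -1.33 within the samples of even signal (adjusted p = 0.322). Without metastatic replicate 3 it was -2.13 and passed (adjusted p = 0.0387).

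DPP4, a peptidase that cuts and inactivates CXCL12, averaged 6.97 ± 1.05 in the 5 metastatic and 8.40 ± 1.53 in the 8 non-metastatic tumours (SD), a difference of -1.42 ± 0.69 (SE, limma adjusted p = 0.228). Of 14 measured genes whose products cleave chemokines or bind CXCL12, 1 rose and 1 fell, where 1.65% and 3.70% of all genes rose and fell at this choice of probe set. The proteoglycan SDC1 rose by 0.57 ± 0.13 (SE, adjusted p = 0.0256) and passed within the samples of even signal (0.69, adjusted p = 0.0332). MMP2, a secreted matrix protease, fell by 1.39 ± 0.32 (SE, adjusted p = 0.0265) at its probe set of highest mean but did not pass there (-1.23, adjusted p = 0.155). Of 24 measured genes of signalling below CXCR4, 0 passed in the limma fit, where 5.35% of all genes did, and 3 had an unadjusted p under 0.05. The G protein subunits GNG2 and GNAI2 differed by 1.22 and -0.33. Among 12 genes of the hypoxia response, which is known to induce CXCL12 and CXCR4, the oxygen sensor EGLN1 rose by 1.07 ± 0.24 (SE, adjusted p = 0.0221), though not within the samples of even signal (0.78, adjusted p = 0.138), and no other passed. HIF1A itself differed by 1.15 ± 0.52 (SE, adjusted p = 0.201).

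CXCL14 varied widely between tumours of the same group, and its difference did not pass the test. It read 6.32, 7.44, 10.37, 8.0 and 11.83 in metastatic replicates 1 to 5. The non-metastatic tumours had a lowest value of 6.08, a median of 10.85 and a highest value of 12.58. Low and high tumours occurred in both groups, and the full range was 6.50. The SD within groups was 2.28, and 99.9% of all tested probe sets had a smaller one. The difference was -1.30 ± 1.15 (SE, limma adjusted p = 0.496), with a 95% interval from -3.76 to 1.15, and -1.83 ± 1.12 (SE, adjusted p = 0.324) at the second probe set.

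The low non-metastatic tumours of CXCL14 were replicates 1 and 3, at 7.15 and 6.08, both without spike-in signal. Non-metastatic tumours of even signal ran from 10.01 to 12.58 and averaged 11.24 ± 1.06 (SD, n = 4), against 7.97 ± 2.41 (SD, n = 3) in those without signal, a difference of 3.28 ± 1.07 (SE, limma adjusted p = 0.0635). Within the samples of even signal the metastatic minus non-metastatic difference was -2.45 ± 1.08 (SE, limma unadjusted p = 0.0480, adjusted p = 0.243). There 3 metastatic tumours, replicates 1, 2 and 4, lay below all 4 non-metastatic ones, while replicates 3 and 5 lay inside their range.

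Over all samples CCL19 had the largest difference of the 7 chemokine genes and was the only one with a probe set past the threshold. In the even spike-in class its difference of -1.29 was smaller in size than that of CXCL14, -2.45, and neither passed. At its probe set of highest mean it read 7.02, 8.23, 7.13, 6.88 and 7.16 in metastatic replicates 1 to 5. The non-metastatic tumours had a lowest value of 7.37, a median of 9.06 and a highest value of 11.48. Of the metastatic tumours 4 lay below every non-metastatic one, and 6 of the 8 non-metastatic tumours lay above every metastatic one. The groups overlapped through metastatic replicate 2 at 8.23 and non-metastatic replicates 2 and 7 at 7.77 and 7.37. CCL19 averaged 7.28 ± 0.54 in the 5 metastatic and 9.36 ± 1.46 in the 8 non-metastatic tumours (SD). The difference was -2.07 ± 0.61 (SE, limma adjusted p = 0.0664), with a 95% interval from -3.38 to -0.76.

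The other CCL19 probe set fell by 2.15 ± 0.58 (SE, limma adjusted p = 0.0497), 4.43-fold lower in metastatic tumours. The values of the 2 probe sets correlated across samples with a Pearson r of 0.998 and a Spearman rho of 0.978. The fall at this other probe set was lost in 11 of the 13 fits that left out 1 sample. Over all 13 of these fits the limma adjusted p ran from 0.0231 to 0.106. Only 1 metastatic value at each probe set lay above 7.16, the highest reading of probe sets without target, which limits how exactly this fall is measured.

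The 3 non-metastatic tumours without spike-in signal had the highest CCL19 values, 10.61 to 11.48. They averaged 10.93 ± 0.48 (SD, n = 3), and the non-metastatic tumours of even signal 8.57 ± 0.82 (SD, n = 4). The difference between these non-metastatic classes, even minus none, was -2.35 ± 0.44 (SE, limma adjusted p = 0.0117). Within the samples of even signal CCL19 differed by -1.29 ± 0.40 and -1.41 ± 0.41 (SE) at its 2 probe sets (limma adjusted p = 0.123 and 0.106), and neither passed. With 1 of these 9 samples left out, neither passed in 8 fits, with adjusted p from 0.0722 to 0.298 at the probe set of highest mean and from 0.0599 to 0.268 at the other. Both passed in the fit without non-metastatic replicate 7, at -1.69 and -1.81 (adjusted p = 0.0358 and 0.0339).

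CCL21, the other ligand of CCR7, was named outside the naming rule, after its values were seen. It ran from 7.02 to 8.79 in metastatic and from 6.86 to 11.02 in non-metastatic tumours, with the highest value in non-metastatic replicate 2. The difference was 0.15 ± 0.62 (SE, limma adjusted p = 0.894). CCR7 itself stayed between 6.21 and 6.58 in metastatic and between 5.62 and 6.42 in non-metastatic tumours, all inside the range of probe sets without target. In the RefSeq gene order of the assembly UU_Cfam_GSD_1.0, CCL21 lies next to CCL19, CCL27 lies 2 places and IL11RA, an interleukin receptor chain, 3 places away. CCL27 differed by 0.51 over all samples (limma adjusted p = 0.199) and by 0.055 within the samples of even signal (adjusted p = 0.797). Between non-metastatic tumours of even and of no spike-in signal it differed by 1.02 (limma adjusted p = 0.00470). IL11RA fell by 1.46 ± 0.37 (SE, limma adjusted p = 0.0399), to 7.11 in metastatic against 8.57 in non-metastatic tumours, and differed by -1.44 within the samples of even signal (adjusted p = 0.108). It was named after its value was seen.

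**Figure D2:**
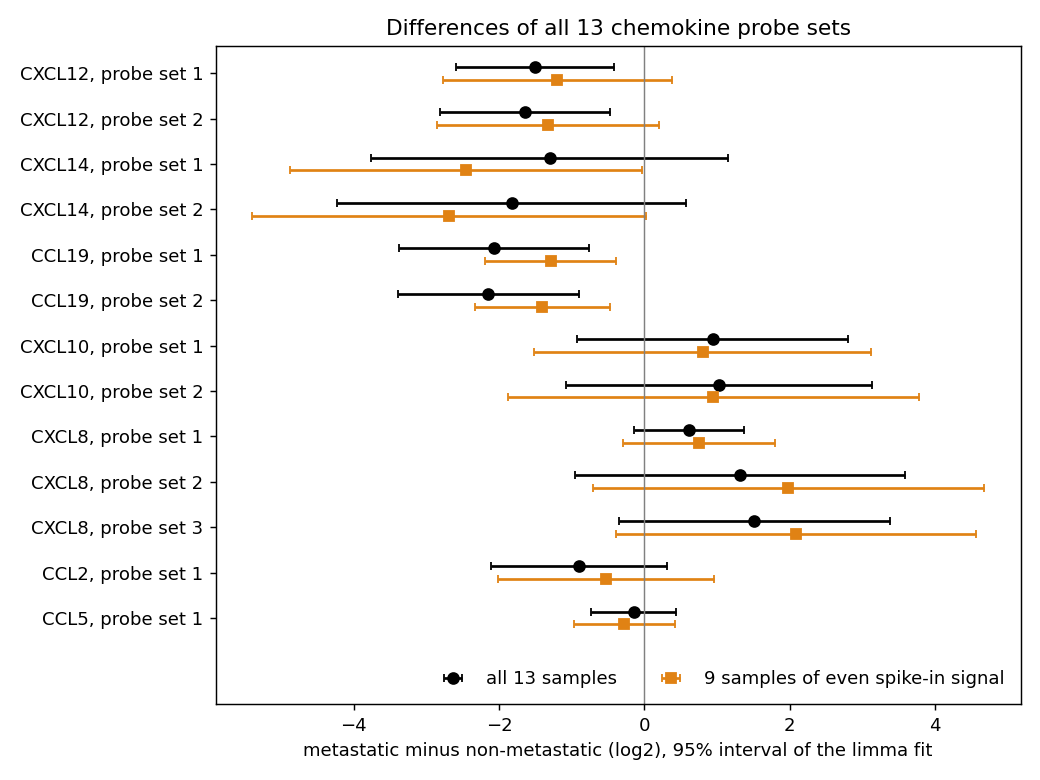
Difference between metastatic and non-metastatic tumours (log2) for all 13 probe sets with the 95% interval of the limma fit, in black for all samples and in orange for the 9 samples of even spike-in signal. Within all samples the intervals of both CXCL12 and both CCL19 probe sets lay below 0, while those of CXCL10, CXCL8, CCL2 and CCL5 spanned it.

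CXCL10, an interferon-induced attractant of T cells, was spread over a wide range in both groups. It read 10.71, 8.35, 8.18, 10.60 and 5.90 in metastatic replicates 1 to 5. The non-metastatic tumours had a lowest value of 5.17, a median of 7.55 and a highest value of 9.92. Metastatic replicates 1 and 4 were the highest of the 13 tumours, and metastatic replicate 5 and non-metastatic replicate 1 the lowest. The difference was 0.94 ± 0.87 (SE, limma adjusted p = 0.518), with a 95% interval from -0.92 to 2.80, and 0.80 ± 1.03 (SE, adjusted p = 0.704) within the samples of even signal. At the other probe set it was 1.03 ± 0.98 (SE, adjusted p = 0.532). Its receptor CXCR3 averaged 7.35 ± 0.32 in the 5 metastatic and 7.04 ± 0.37 in the 8 non-metastatic tumours (SD, limma adjusted p = 0.331). Of 21 measured interferon response genes 0 passed, where 5.35% of all genes did. Among the 21, 5 had an unadjusted p under 0.05, and the median difference was 0.15. IFNG and IFNB1 differed by 0.48 and 0.47, with every value below 7.16, and the interferon gamma receptor chain IFNGR1 by -0.92 (adjusted p = 0.0666).

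CXCL8, which attracts neutrophils, was high in a few tumours of either outcome. At the probe set of highest mean it read 6.89, 6.81, 8.66, 9.0 and 7.35 in metastatic replicates 1 to 5. The non-metastatic tumours had a lowest value of 6.81, a median of 6.96 and a highest value of 7.98. Metastatic replicates 3 and 4 and non-metastatic replicate 2 stood above the other 10 tumours at this probe set. The other probe sets spanned 6.12 and 5.83 in place of 2.19, with 9.98 and 10.63 in metastatic replicates 3 and 4 and 10.31 in non-metastatic replicate 2 at the wider one. Their ranking was alike, with Spearman rho between 0.94 and 0.96.

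Most CXCL8 values were not told apart from probe sets without target, so the sizes of its differences are not exact. Above 7.16 lay 3 of 5 metastatic and 3 of 8 non-metastatic values at the probe set of highest mean. At the other 2 probe sets these were 3 and 2 of the metastatic and 2 and 0 of the non-metastatic values. The fitted difference was 0.61 ± 0.35, 1.32 ± 1.06 and 1.51 ± 0.87 (SE) at the 3 probe sets, with limma adjusted p of 0.298, 0.454 and 0.297. Within the samples of even signal the differences were 0.75, 1.98 and 2.09 (adjusted p = 0.400, 0.387 and 0.324). The receptors CXCR1 and CXCR2 share a probe set with both symbols, which was not named. Of 7 measured neutrophil markers 0 passed over all samples, where 5.35% of all genes did. Among the 7, 1, LTF, had an unadjusted p under 0.05 (0.89, limma adjusted p = 0.0686). Within the samples of even signal 0 of the 7 passed, where 2.82% of all genes did, and 5 had an unadjusted p under 0.05 (limma). Their median difference was 0.34 over all samples and 0.27 within those of even signal. The mean level of the 7 neutrophil markers ran from 6.53 to 7.08 in metastatic tumours. In non-metastatic tumours of even signal it ran from 6.34 to 6.89. Both lie inside the range of probe sets without target. The macrophage and monocyte markers, another known source of CXCL8, had 0 of 16 past the threshold, 0 at an unadjusted p under 0.05 and a mean level from 7.88 to 9.83 in metastatic and from 8.15 to 9.59 in non-metastatic tumours.

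Of 26 measured inflammatory inducers and NF-kB response genes, 3 fell and 0 rose, where 3.70% and 1.65% of all genes fell and rose. Of the 26, 1 fell within the samples of even signal, where 2.24% of all genes did. NFKBIA, the inhibitor of NF-kB, fell by 1.16 ± 0.30 (SE, limma adjusted p = 0.0394), with metastatic values from 9.08 to 10.03 and non-metastatic values from 10.18 to 12.18. TNFAIP6, a hyaluronan-binding protein induced by tumour necrosis factor, fell by 2.37 ± 0.57 (SE, adjusted p = 0.0311), and the NF-kB subunit RELB by 0.66 ± 0.13 (SE, adjusted p = 0.0120). RELB also passed within the samples of even signal (-0.53, adjusted p = 0.0183), while NFKBIA and TNFAIP6 did not (-0.83 and -2.12, adjusted p = 0.0569 and 0.122). The median difference of the 26 genes was -0.11.

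CCL2, the main attractant of monocytes, read 10.71, 7.68, 11.14, 8.58 and 9.16 in metastatic replicates 1 to 5. The non-metastatic tumours had a lowest value of 9.59, a median of 10.03 and a highest value of 12.02. Metastatic replicates 2, 4 and 5 lay below every non-metastatic tumour, and replicates 1 and 3 above the non-metastatic median. The SD was 1.45 among the 5 metastatic and 0.86 among the 8 non-metastatic tumours. CCL2 differed by -0.90 ± 0.56 (SE, limma adjusted p = 0.334), with a 95% interval from -2.11 to 0.31, and -0.52 within the samples of even signal (adjusted p = 0.698). Its receptor CCR2 averaged 6.51 ± 0.16 in the 5 metastatic and 6.16 ± 0.30 in the 8 non-metastatic tumours (SD, limma adjusted p = 0.188), with every value inside the range of probe sets without target. CCL13, CCL8 and CCL7, the neighbours of CCL2 in the same gene order, differed by 0.99, 0.31 and 0.16 without passing.

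CCL5, made by activated T cells and other leukocytes, had the smallest difference of the 7 genes. It read 9.03, 8.62, 8.65, 9.23 and 8.03 in metastatic replicates 1 to 5. The non-metastatic tumours had a lowest value of 8.01, a median of 8.87 and a highest value of 9.73. The groups covered almost the same range, and the SD within groups of 0.52 was the smallest of the 13 probe sets. The difference was -0.15 ± 0.27 (SE, limma adjusted p = 0.756), and its 95% interval from -0.73 to 0.44 leaves room for a difference of either sign. The receptors CCR1 and CCR3 differed by 0.44 and -0.30 without passing.

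Pairs of these transcripts that moved together across tumours are given as a description over the 13 samples, which share the array and its processing. CXCL12 and CCL19 correlated with a Pearson r of 0.73 and a Spearman rho of 0.76, and r was 0.54 after the mean of each group was removed. CXCL10 and CCL5 correlated with r of 0.72 and rho of 0.65, and r was 0.80 with group means removed. CCL2 and ACKR3 correlated with r of 0.64 and rho of 0.47, and r was 0.56 with group means removed. Leaving out the 2 samples farthest from the median of the first gene of each pair gave r of 0.70, 0.66 and 0.47. CXCL12 and CXCL8 had the most negative r, -0.58, with rho of -0.35.

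**Figure D3:**
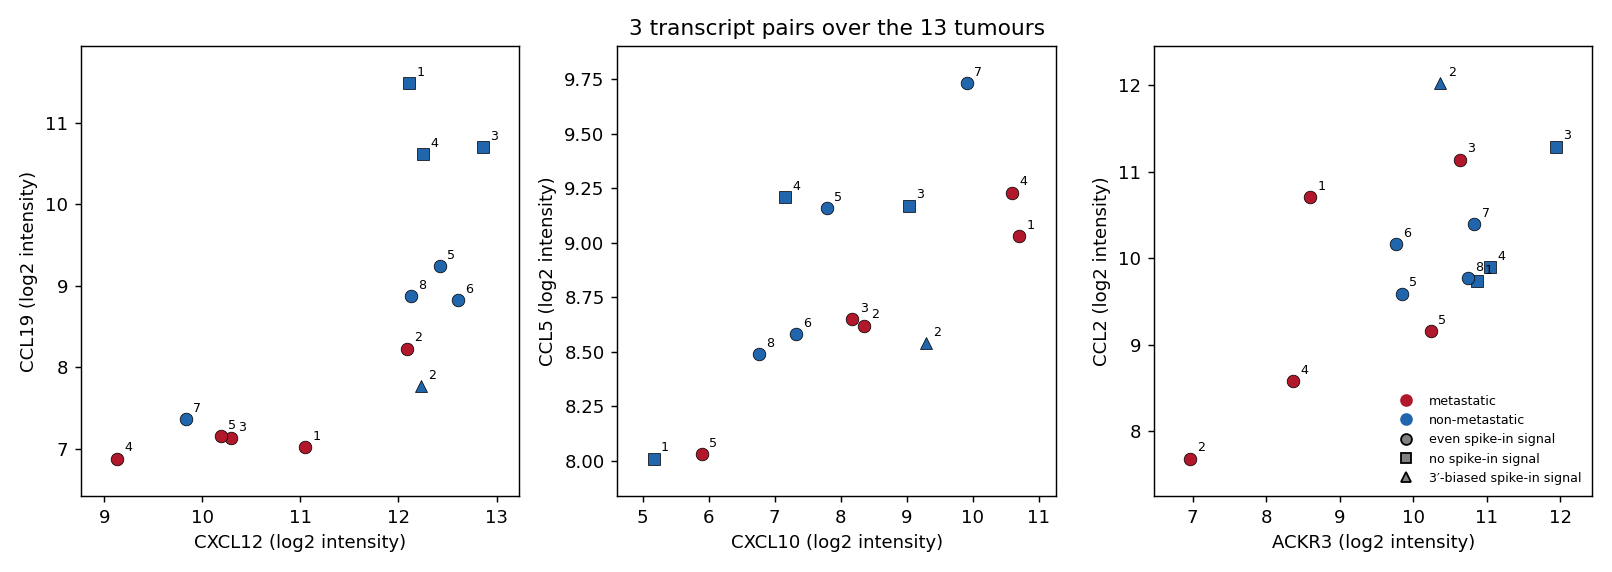
Log2 intensity of 3 transcript pairs in the 13 tumours, with metastatic samples in red and non-metastatic samples in blue; numbers are replicates and symbols give the spike-in class. The 5 tumours with CXCL12 below 12 read 6.88 to 7.37 for CCL19. Of these only non-metastatic replicate 7 lay above 7.16, the highest reading of probe sets without target. Among tumours with CXCL12 above 12 CCL19 ran from 7.77 to 11.48, highest in non-metastatic replicates 1, 3 and 4, those without spike-in signal. Within the samples of even signal CXCL12 and CCL19 had a Pearson r of 0.90.

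Over all named genes, the profiles most like that of CXCL10 belonged to GBP1, a guanylate-binding protein (r = 0.95), XAF1 (r = 0.90) and PSMB8, a subunit of the immunoproteasome (r = 0.88). Those most like CCL5 were the peptide transporter TAP2 (r = 0.85), the cytokine CD70 (r = 0.83) and IFI44 (r = 0.82). CXCL12 was most like the cadherin FAT4 (r = 0.90), CLN8 (r = 0.90) and the kinase CDC42BPB (r = 0.89). CCL19 was most like the lipid kinase PIK3C3 (r = 0.94), the kinase regulatory subunit PIK3R2 (r = 0.94) and the transcription factor TWIST1 (r = 0.93). Within the samples of even signal, r with these genes was 0.85, 0.89 and 0.78. Over all samples PIK3R2 (-1.07) and TWIST1 (-1.54) fell in the limma fit (adjusted p = 0.0499 and 0.0325). Their differences within the samples of even signal are not given here. CXCL14 was most like the selenocysteine lyase SCLY, HSD3B7 and UBE3D (r = 0.90 each). CXCL8 was most like the Wnt inhibitor APCDD1 (r = 0.93), CYP2B6 (r = 0.92) and RAB38 (r = 0.92). CCL2 was most like the peptidase AMZ1 (r = 0.86), the granulin precursor GRN (r = 0.84) and LY6G6C (r = 0.81). Apart from the values of even signal given for CCL19, these are Pearson correlations over 13 samples, the highest over all other named genes.

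The rest of the chemokine family showed no gene past the threshold. Of 36 other measured ligands and receptors 0 passed in the limma fit, where 5.35% of all genes did, and 4 had an unadjusted p under 0.05. Of the 36, 27 had positive and 9 negative differences, and 30 were higher in non-metastatic tumours of even spike-in signal than in those without signal. Over all genes 56.1% and 60.0% were positive in these comparisons, which share the non-metastatic samples. The median of the 36 was 0.27 over all samples and 0.13 within the samples of even signal, against 0.05 and 0.03 for all genes.

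Among the 21 other ligands the smallest p over all samples belonged to CCL26 (0.51), the skin chemokine CCL27 (0.51) and the macrophage chemokine CCL3 (0.62), with limma adjusted p of 0.120, 0.199 and 0.218. Within the samples of even signal CCL27 differed by 0.055 (limma adjusted p = 0.797). CCL13 had the largest positive difference, 0.99 ± 0.51 (SE, adjusted p = 0.255). It read 8.83 and 7.55 in metastatic replicates 1 and 3. The other metastatic tumours, at 5.45 to 5.62, lay inside the non-metastatic range of 4.98 to 6.57. All values but those of metastatic replicates 1 and 3 were inside the range of probe sets without target. Among the 8 measured receptors of the 7 chemokines, ACKR3 had the smallest p over all samples, followed by CCR2 (0.35) and the scavenging receptor ACKR2 (0.54). ACKR2 read at most 6.55 in non-metastatic replicates 1, 3 and 4, those without spike-in signal, and at least 7.3 in every other tumour. CCR2 was also lowest in these 3 tumours, at 5.62 to 5.97. Within the samples of even signal 0 of the 8 had an unadjusted p under 0.05 (limma). Their median difference was 0.33 over all samples and 0.14 within those of even signal. The 7 other receptors had 0 past the threshold and 0 at an unadjusted p under 0.05, with CXCR5 at 0.24, CCR6 at 0.26 and CXCR6 at 0.16.

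**Figure D4:**
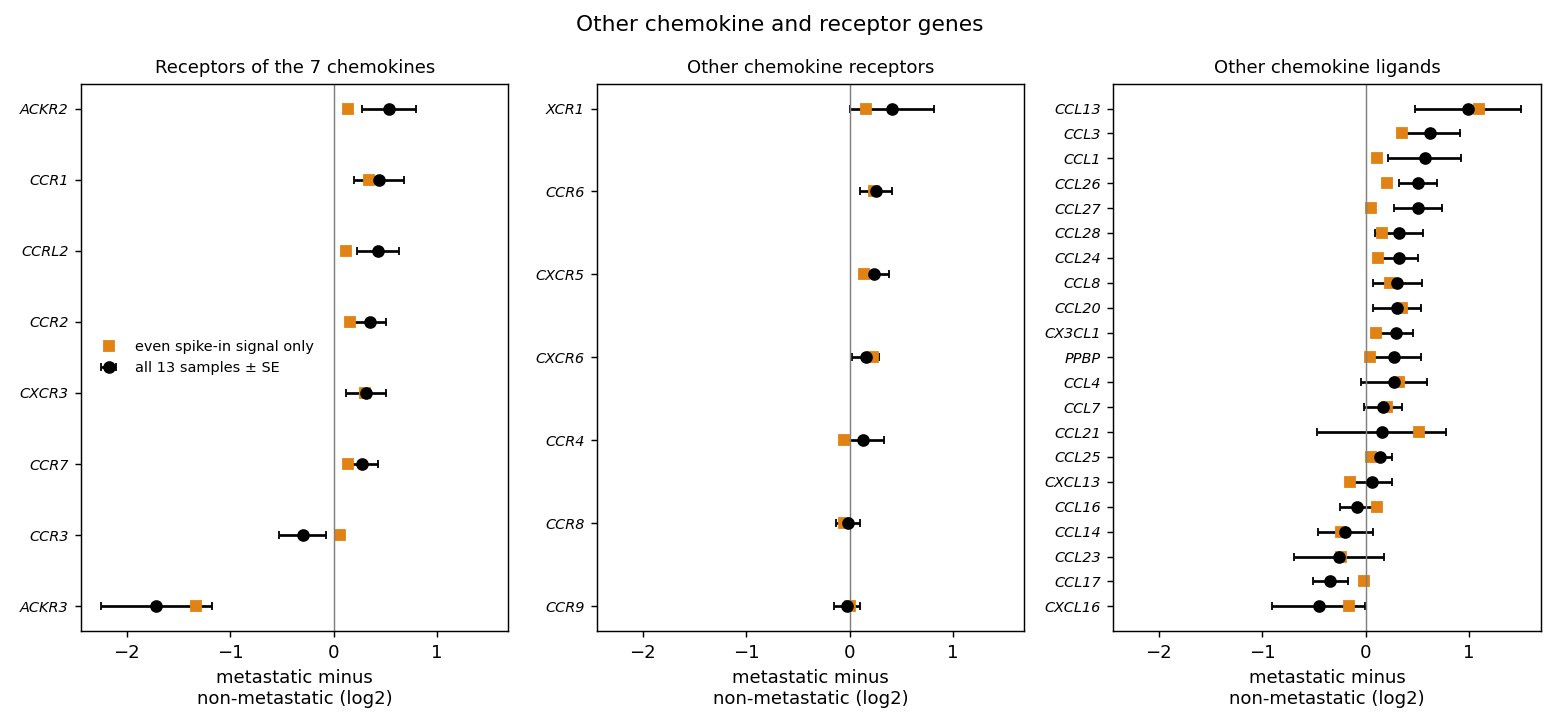
Difference between metastatic and non-metastatic tumours (log2) for 36 other chemokine receptors and ligands at their probe set of highest mean, in black with the standard error for all samples and in orange for the samples of even spike-in signal. ACKR3 lay at -1.71 and every other gene between -0.45 and 0.99.

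Markers of the cell types that make or follow these chemokines were read from lists. The 3 fibroblast markers that fell were decorin (DCN) by 1.29 ± 0.20, the protease FAP by 1.58 ± 0.41 and the surface protein THY1 by 1.41 ± 0.37 (SE, limma adjusted p = 0.00429, 0.0421 and 0.0425). DCN also passed within the samples of even signal (-1.35, adjusted p = 0.0346), FAP and THY1 did not (adjusted p = 0.174 and 0.133), and the median of the 12 fibroblast markers was -0.69 over all samples. In the 12 other lists 0 of 113 measured markers passed over all samples, where 5.35% of all genes did, and 9 had an unadjusted p under 0.05. These were markers of T and NK cells, B and plasma cells, macrophages, dendritic cells, neutrophils, mast cells, endothelium, pericytes and smooth muscle, adipocytes, keratinocytes, skeletal muscle, and Schwann cells. The mean level of the 18 T and NK cell markers ran from 6.59 to 7.05 in metastatic and from 6.57 to 6.93 in non-metastatic tumours.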

How the data were processed

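Total RNA of 13 untreated primary tumours was labelled with 1 cycle of 3′ in vitro transcription, per the labels' protocols, and hybridised to an Affymetrix canine array. The authors deposited 1 table of processed values, read as log2 intensities from their range of 0 to 14.33. Software, background correction and normalization were not given in the sources used here, so the deposited values were taken unchanged. Of 43035 probe sets, 111 Affymetrix controls were left out. Gene names came from the platform annotation (29264 probe sets with 1 symbol, 439 with several, 13332 with none). All 7 genes were found in the RefSeq gene table.

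Group means were compared per probe set in limma 3.58.1 under R 4.3.3 (functions lmFit and eBayes, two-sided). Benjamini-Hochberg adjustment ran over 42924 probe sets, and calls were made at 0.05. Where a gene had several probe sets, that of highest mean over all samples stood for it. The fit was checked on simulated data. Samples had spike-in signal when their 3′ probe sets averaged above 6, and biased signal when the 3′ minus 5′ value reached 2. Tables and plots used Python 3.11.15, pandas 2.3.3 and matplotlib 3.10.9. The number of arrays limits the precision.

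The rule for naming took all 7 chemokines, their receptors, DPP4, up to 3 genes of each list by smallest p and, for each chemokine, the 3 genes of highest Pearson r. CCL21, the gene-order neighbours CCL7, CCL8, CCL13 and IL11RA, and CCL20 were named outside this rule, after their values were seen. The members and lists were chosen with earlier results of these data known. Alternatives were quantile normalization, an intensity trend, a filter on dim probe sets, each sample left out, blocks, covariates, array weights and means of a gene's probe sets. Leaving out the samples without spike-in signal, and single samples within the even class, were added after seeing the data.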

Additional observations from a re-analysis of the deposited data

Results flagged for a closer look

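In 4 of the 26 groups of chemokine values, 1 sample stood far from the others, with a gap to its nearest neighbour above Dixon's 95% critical value for the group's range. Chance gives about 1 such group in 20. The 26 groups are not independent, since they hold several probe sets of the same genes, so the count of 4 is not weighed against that share. CXCL12 was lowest in non-metastatic replicate 7 at 9.83, at the probe set of highest mean, 2.28 below the next non-metastatic tumour. At its other probe set this tumour was also lowest, at 8.46, but the gap stayed under the critical value. CXCL8 was highest in non-metastatic replicate 2 at 7.98, at the probe set of highest mean. CCL19 was highest among metastatic tumours in replicate 2, at 8.23 and 8.17 at its 2 probe sets.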

How the results depend on the processing

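Among all probe sets 2104 passed. This count was 733 with the replicate number as a block (replicate block), 1192 within the samples of even spike-in signal, 1367 under a covariate for the 3′ to 5′ ratio of ACTB, 4011 with array weights and 207 without the samples of no spike-in signal. It ran from 856 (without metastatic replicate 1) to 4478 (without non-metastatic replicate 2) when 1 sample was left out. Within the even class it was 723, 1170, 997, 1207 and 701 without metastatic replicates 1 to 5 and 659, 627, 755 and 259 without non-metastatic replicates 5 to 8. Of the chemokine probe sets 1 passed in the main comparison. None, 0, passed with quantile normalization, the replicate block, the even class, the spike-in class as a block, the ACTB covariate, means of a gene's probe sets, or without the samples of no spike-in signal, and 4 with array weights. The count ran from 0 to 4 with 1 sample left out (4 without non-metastatic replicate 7, 2 without replicate 2) and from 0 to 2 within the even class. Deviations from group means of the 5 same-numbered pairs correlated between -0.01 and 0.08, so the replicate numbers were not taken as pairs. The other ligands and receptors past the threshold numbered 0 to 1 with 1 sample left out, ACKR3 without metastatic replicate 3 and CCL20 (0.48) without non-metastatic replicate 2. Differences at the probe set of highest mean kept their sign in every alternative run for 6 genes. With 1 sample left out they ran from -1.89 to -1.15 for CXCL12, -2.06 to -0.69 for CXCL14, 0.45 to 1.65 for CXCL10, 0.30 to 0.85 for CXCL8, -1.32 to -0.46 for CCL2 and -2.36 to -1.77 for CCL19. The exception was CCL5, which ran from -0.279 to 0.0213 with 1 sample left out and was positive without metastatic replicate 5. The cause of these moves was not tested.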
